A study of Mus musculus with 2 samples.

Results

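Lymphatic endothelial nuclei of the mouse ascending aorta and arch are described here: 142 of 39516 nuclei barcodes, 46 of 18863 in the Female library and 96 of 20653 in the Male library. They were chosen by 4 marker genes, using unique molecular identifiers (UMIs), which count captured transcripts. A barcode with at least 300 detected genes was a member when Prox1, Mmrn1, Flt4 and Reln summed to at least 4 UMIs. It also needed at least 1 UMI of Prox1 or Mmrn1, and a sum above that of Myh11, Acta2 and Lmod1 (smooth muscle) and above that of Pdgfra and Dcn (fibroblast). The comparison was with 12208 blood vessel endothelial barcodes, 5262 Female and 6946 Male, in which Ptprb, Pecam1, Cdh5 and Cyyr1 summed to at least 3 UMIs and above the smooth muscle sum, and Prox1 and Mmrn1 were at 0.

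The tissue was ascending aorta and aortic arch of Wnt1-Cre;Rosa26-mTmG mice, pooled by sex from 6 animals as the labels state it, with 1 library deposited per sex. All animals carried the Cre driver and the reporter, and the labels give no other allele, no treatment and no age. The labels say that each pool was split into 2 technical replicates, and the barcodes of the splits were not separated here. With 1 pooled library per sex, a Female to Male difference cannot be told apart from a difference between pools or preparations.

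Lymphatic vessels take up tissue fluid and leukocytes through blind-ended capillaries with button-like junctions and carry them through valved collecting vessels back to the veins. The transcription factor Prox1 sets and keeps lymphatic endothelial identity, and Flt4 (VEGFR3) is the receptor through which Vegfc and Vegfd drive lymphatic growth. Mmrn1 is a secreted multimerin and Reln (reelin) a secreted matrix glycoprotein made by lymphatic endothelium. In large arteries lymphatics lie in the outer wall and the surrounding fat.

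The promoters of 3 genes that set the members apart are shown, since their values are given in the text below: Ccl21a, which had the largest fold in the comparison, Clca3a1, which was found in more members than any other of the 20 genes with the largest fold, and Reln, the marker found in the fewest members. Each is the 250 bases before the RefSeq start on GRCm38.p6, 5′ to 3′ on the gene's own strand. The windows are chr4:42773992-42774241 for Ccl21a, chr3:144760978-144761227 for Clca3a1 and chr5:22344706-22344955 for Reln, all on the minus strand. Of 7 lymphatic genes looked up, 6 were in the RefSeq promoter table.
Ccl21a: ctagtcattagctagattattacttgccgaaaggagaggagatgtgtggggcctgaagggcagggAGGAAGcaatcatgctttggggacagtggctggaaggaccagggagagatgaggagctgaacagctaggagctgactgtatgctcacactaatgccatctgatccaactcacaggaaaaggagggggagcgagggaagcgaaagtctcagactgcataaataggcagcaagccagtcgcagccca
Clca3a1: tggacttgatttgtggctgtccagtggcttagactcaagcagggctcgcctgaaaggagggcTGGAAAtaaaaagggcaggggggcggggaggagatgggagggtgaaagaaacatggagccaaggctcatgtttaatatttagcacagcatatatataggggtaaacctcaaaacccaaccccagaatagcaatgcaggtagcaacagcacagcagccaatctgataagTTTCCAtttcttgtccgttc
Reln: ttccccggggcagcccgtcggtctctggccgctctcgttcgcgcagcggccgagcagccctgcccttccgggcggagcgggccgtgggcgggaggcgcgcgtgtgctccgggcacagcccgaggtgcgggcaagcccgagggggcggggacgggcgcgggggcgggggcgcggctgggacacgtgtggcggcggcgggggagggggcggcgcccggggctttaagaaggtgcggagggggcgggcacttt
Capitals mark matches, on both strands, to 7 short motifs chosen for factor families named below: AGGTCA (Nr2f), TGCTGA (Maf), GTAAACA (forkhead), TGGAAA (Nfat), AGGTGT (T-box), ACAAT (Sox) and AGGAAG (Ets). The Ccl21a window held 1 match, to the Ets motif, and the Clca3a1 window 2, both to the Nfat motif, while the Reln window held none. Of 32851 promoters of this length, 29.5% held the Ets motif, 27.7% the Sox, 18.6% the Nfat, 16.1% the Maf, 14.0% the Nr2f, 11.8% the T-box and 3.17% the forkhead motif. A match describes letters and not a bound site.

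The marker genes are given first, as a description with no test, since they chose the members. Levels are CPM, the UMIs of a gene per 1000000 UMIs of the summed barcodes. Prox1 stood at 821 CPM in Female and 578 CPM in Male members, and Mmrn1 at 1341 and 1549 CPM. Flt4 stood at 1032 and 857 CPM, against 30.3 and 33.2 CPM in blood vessel barcodes. Reln stood at 1123 and 1699 CPM, against 2.94 and 4.33 CPM. Mmrn1 was found in 126 of 142 members, Flt4 in 120, Prox1 in 101 and Reln in 88, and 48 members held all 4. The 4 blood vessel rule genes were present in members too: Pecam1, the endothelial junction protein CD31, at 1138 and 1999 CPM against 4095 and 4614 CPM in blood vessel barcodes, and Cdh5, VE-cadherin, at 181 and 219 CPM against 233 and 227 CPM.

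The marker sum had a median of 8 UMIs in Female and 12 in Male members. Just outside the threshold, 10 barcodes with a sum of 3 met the other conditions, and Clca3a1 UMIs were in 20% of them, Pard6g in 10% and Foxp2 in 20%. Just inside, 20 members had a sum of 4, and the shares were 60%, 55% and 65%. Other genes stepped less or not at all: Nrp2 was in 30% outside and 40% inside, Ccl21a in 0% and 10%, and Lyve1 in 20% and 10%. Members held 132728 UMIs in Female and 333681 in Male, with medians of 2806.5 and 2662 UMIs per barcode. Blood vessel barcodes had medians of 3217 and 3168 UMIs, so a gene with few UMIs in members may be below what this depth shows. The libraries shared 4287 barcode sequences, of which 11 Female and 15 Male members carried 1, and none was a member in both.

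Transcripts of other cell types were scarce in members but not absent. At least 3 UMIs of 6 smooth muscle markers were found in 19 members and of 5 fibroblast markers in 6, and no member reached 3 UMIs for the macrophage, T or NK, B, Schwann or cardiac muscle lists. For the brown adipocyte, white adipocyte and mesothelial lists, 1, 2 and 2 members did. Brown adipocyte markers stood at 15.1 CPM in Female and 144 CPM in Male members, against 52.4 and 46.2 CPM in blood vessel barcodes. Mesothelial markers stood at 0 and 74.9 CPM against 20.75 and 51.75 CPM. White adipocyte markers were lower in members of both libraries. Of 6 macrophage markers 4 were at 0 in all members, of 5 T or NK markers 3, of 4 B markers 2 and of 3 Schwann markers all 3. At least 3 UMIs of any non-endothelial list were found in 9 Female and 17 Male members (19.6% and 17.7%), against 31.0% and 31.2% of blood vessel barcodes. The smooth muscle and fibroblast lists include the rule genes Myh11, Acta2, Lmod1, Pdgfra and Dcn, whose sums had to stay below the marker sum in members. Blood vessel barcodes had no fibroblast condition, so the difference in shares is in part set by the rules. Scrublet, a doublet caller, marked 0 Female and 4 Male members, which were kept unless stated.

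The comparison of lymphatic with blood vessel endothelial barcodes asks what, beyond the markers, sets the members apart within the same libraries. Of 18000 genes tested, 501 (2.78%) were higher and 705 (3.92%) lower in members at an adjusted p of at most 0.05, in edgeR's quasi-likelihood test on 4 summed profiles with the library as a block and Benjamini-Hochberg adjustment. The median log2 fold change of all tested genes was -0.31. With 4 profiles the fit has 1 residual degree of freedom. The spread behind the p-values is that between these 2 pooled libraries, with each gene's estimate shared across genes. A small p-value is therefore not a measure of that gene's own agreement between the libraries. The direction was the same in both libraries for 1200 of the 1206 genes called (6.7% of those tested). The call was made on the same 2 libraries and favours genes that agree, so this count is not a replication. DESeq2's Wald test called 404 higher and 260 lower. It did not call 27 of the named genes that edgeR called and that were followed over settings, namely Ccbe1, F13a1, Unc5d, Ptger4, Slc7a2, Tbx1, Nfatc1, Vegfa, Svep1, Gja4, Icam2, Emcn, Cd34, Notch4, Esam, Jam2, Plxna2, Plxnd1, Ntn4, Unc5b, Slit3, Itga5, Lama5, Nid2, Cd44, Lrp1 and Nr4a1. Cd200, Sema6d, Epha4 and Rbpj, also named below, were not called by it either, by the list counts that follow. By list, the Wald test called 3 higher and 1 lower of the VEGF genes, 1 and 0 of the angiopoietin, 3 and 1 of the collecting vessel, 4 and 2 of the leukocyte, 4 and 4 of the blood vessel, 2 and 1 of the junction, 4 and 1 of the semaphorin, 3 and 2 of the Slit and ephrin, 4 and 1 of the integrin and matrix, and 1 and 5 of the Notch and BMP genes described below.

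**Figure D1:**
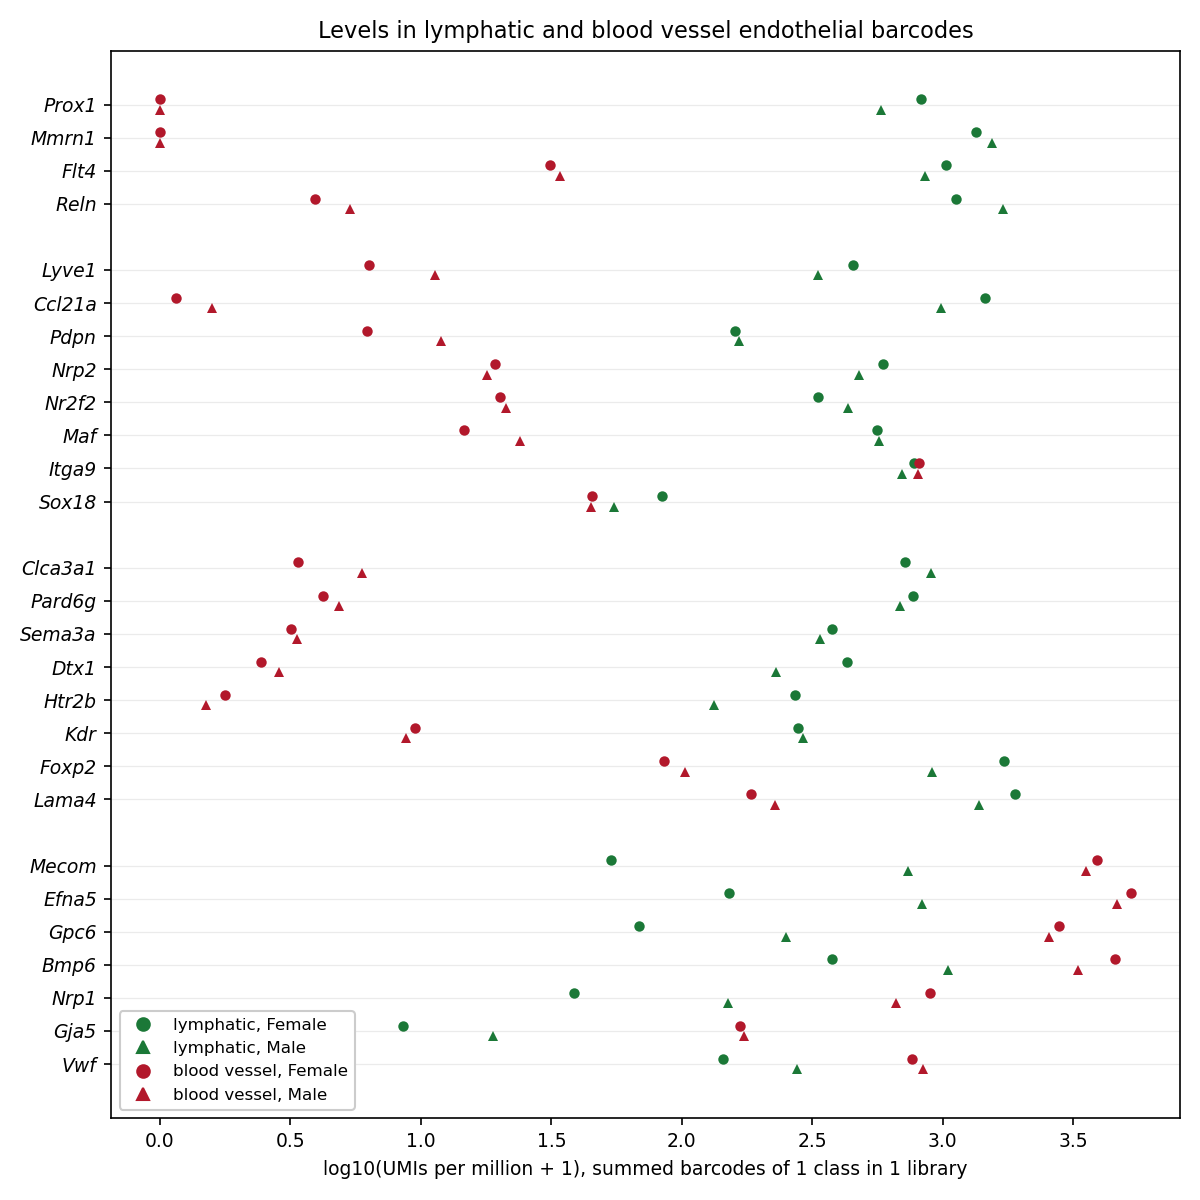
Levels of 27 genes as log10(CPM + 1) in the summed lymphatic (green) and blood vessel endothelial (red) barcodes of the Female (circles) and Male (triangles) library, 1 point per sum; the top 4 genes are the markers that chose the members. Ccl21a, Clca3a1 and Pard6g lie far to the right in members of both libraries, Itga9 overlaps between the classes, and Mecom, Efna5 and Bmp6 lie lower in members, further so in Female than in Male.

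Lymphatic markers outside the rule were checked first, from a list chosen with earlier results of these data known. Of 8 markers not used by the rule, 6 were higher and none lower in edgeR's test, also at an unadjusted p under 0.05 and in DESeq2's Wald test, and the median log2 fold change was 4.46. Ccl21a, the chemokine that draws Ccr7-bearing dendritic and T cells into lymphatics, stood at 1454 CPM in Female and 986 CPM in Male members, against 0.155 and 0.580 CPM in blood vessel barcodes. Its levels did not overlap, and its log2 fold change was 11.37 (SE 0.42, edgeR quasi-likelihood adjusted p = 1.09e-154). Ccl21a lies at chr4:42772860-42773993 (GRCm38, minus strand), and its reads cannot be told apart from those of its near-identical copies. Lyve1, a hyaluronan receptor, stood at 452 and 333 CPM against 5.32 and 10.3 CPM (log2 5.48, SE 0.31). Pdpn, the mucin-like protein podoplanin, stood at 158 and 165 CPM against 5.21 and 10.9 CPM (log2 4.17, SE 0.40). Nrp2, a co-receptor for Vegfc, was higher by 4.74 on the log2 scale, Nr2f2 (COUP-TFII), a venous and lymphatic nuclear receptor, by 4.12, and Maf, a bZIP factor, by 4.79. Adjusted p-values of these 5 genes in edgeR's quasi-likelihood test were at most 5.75e-23. Itga9, an integrin of lymphatic valves, did not pass, with 776 and 698 CPM against 812 and 802 CPM, and neither did Sox18, with 82.9 and 53.9 CPM against 44.4 and 44.1 CPM.

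The 20 genes with the largest positive fold, by a rule on fold and level that left out the markers, ranged from a log2 fold change of 11.37 (Ccl21a) to 6.0 (Reep1). Clca3a1, a calcium-activated chloride channel regulator with close paralogs, at chr3:144729677-144760977, was found in 108 of 142 members, at 716 CPM in Female and 902 CPM in Male, against 2.37 and 4.95 CPM in blood vessel barcodes. Both member sums lay far above both blood vessel sums, and the log2 fold change was 7.66 (SE 0.33, edgeR quasi-likelihood adjusted p = 2.11e-110). Pard6g, a Par6 cell polarity protein, was found in 105 members, at 769 and 686 CPM against 3.20 and 3.87 CPM (log2 7.50, SE 0.33, edgeR quasi-likelihood adjusted p = 8.99e-109). These genes were seen in as many members as Prox1 or more, although the rule did not use them.

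Several others of the 20 encode signalling proteins. Sema3a, a secreted repulsive semaphorin, stood at 377 CPM in Female and 339 CPM in Male members against 2.17 and 2.36 CPM (log2 7.12, SE 0.35). Dtx1, a Deltex E3 ligase of the Notch pathway, stood at 429 and 228 CPM against 1.45 and 1.86 CPM (log2 7.35, SE 0.36). Htr2b, a serotonin receptor whose gene overlaps Psmd1, stood at 271 and 132 CPM against 0.774 and 0.502 CPM (log2 8.05, SE 0.49). Each of these 3 genes was above both blood vessel levels in both libraries.

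Others of the 20 were found in fewer members. Duox2, an NADPH oxidase that makes hydrogen peroxide, was in 39 members (log2 8.87, SE 0.75), and Sh3gl3, an endophilin of endocytosis, in 40 (log2 9.45, SE 0.60). Lcn2, the iron-siderophore binder lipocalin 2, was in 51 members, at 181 and 204 CPM, while its blood vessel levels were 0.155 CPM in Female and 4.45 CPM in Male. Apba2, Slc16a12, Scn3a, Nrcam, Shc3, Dnah10, Apold1, Btnl9, Hoxd9 and Reep1 were also in the group, each in 12 to 34 members. The largest adjusted p among the 20, in edgeR's quasi-likelihood test, was 2.26e-06, for Hoxd9, which had 11 Female and 9 Male UMIs.

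**Figure D2:**
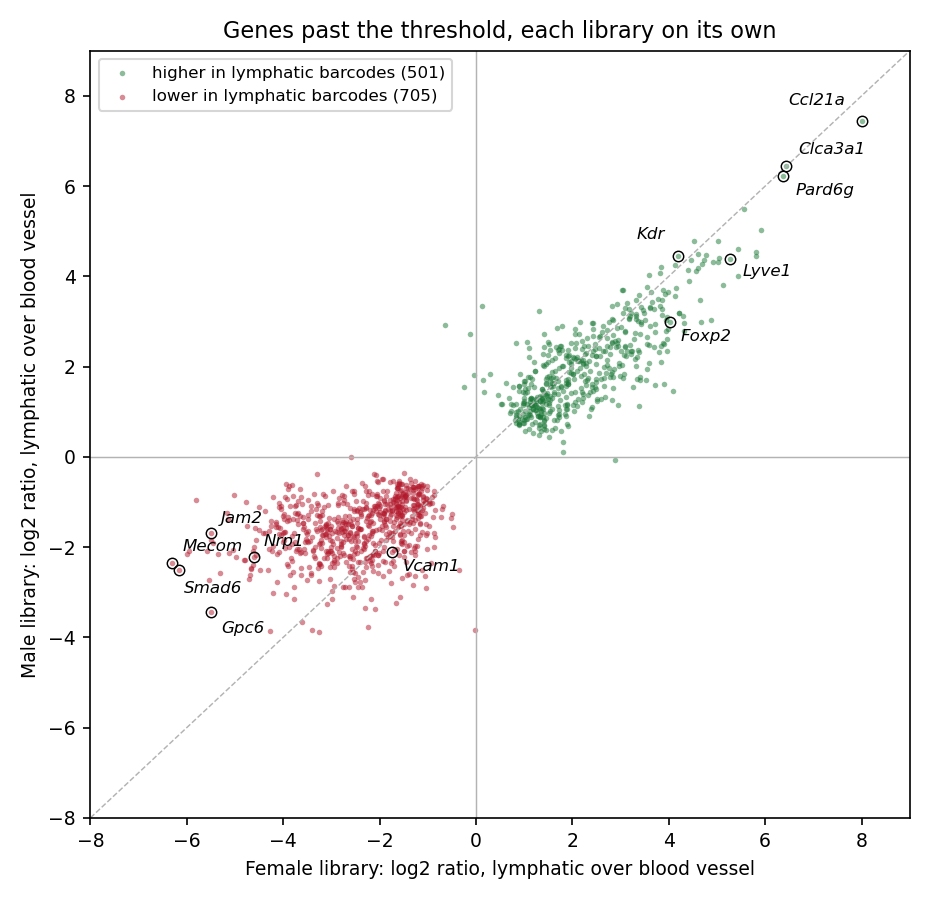
Log2 ratio of members over blood vessel barcodes after adding 5 CPM, Female library on the x axis and Male library on the y axis, for the 501 genes higher (green) and 705 lower (red) in members; the dashed line marks equal ratios and named genes are ringed. Higher genes lie along the line, while most lower genes, such as Mecom, Smad6 and Jam2, lie above it because their ratio is closer to 0 in the Male library.

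Among 17 transcription factors linked to lymphatic endothelium, 5 were higher, none was lower and 12 did not pass in edgeR's test, with a median log2 fold change of 0.39. At an unadjusted p under 0.05, 2 were lower, and DESeq2's Wald test called 3 higher and 0 lower. Beside Maf and Nr2f2, Foxp2, a forkhead repressor at chr6:14901349-15441977, stood at 1718 CPM in Female and 905 CPM in Male members against 84.8 and 102 CPM (log2 3.57, SE 0.29, edgeR quasi-likelihood adjusted p = 3.29e-32). Its fold was 6.13 on the log2 scale without barcodes that held 3 or more UMIs of non-endothelial markers. Tbx1, a T-box factor needed for lymphatic growth, and Nfatc1, a calcineurin-regulated factor, were higher by 1.02 and 0.97 on the log2 scale, and both lost the call with members limited to those with Prox1 and Mmrn1 UMIs (adjusted p = 0.13 and 0.0951, edgeR's quasi-likelihood test). Foxc2, the forkhead factor of lymphatic valves, stood at 22.6 and 24.0 CPM against 18.8 and 21.5 CPM, Gata2 at 106 and 59.9 CPM against 131 and 126 CPM, and the endothelial factor Erg at 332 and 441 CPM against 560 and 510 CPM, and none of these 3 passed.

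Of 12 genes of the VEGF system tested, 2 were higher and 3 lower, with a median log2 fold change of -0.81, or -0.31 with the 2 genes that had no UMI in members set at the bound that 3 UMIs give. Kdr (VEGFR2) stood at 279 CPM in Female and 291 CPM in Male members against 8.52 and 7.81 CPM (log2 4.97, SE 0.33, edgeR quasi-likelihood adjusted p = 3.4e-48). Nrp2 was the other higher gene. Nrp1, the co-receptor that pairs with Kdr in blood vessels, ran the other way, at 37.7 and 150 CPM against 890 and 663 CPM (log2 -3.03, SE 0.32, edgeR quasi-likelihood adjusted p = 1.44e-18). The ligand Vegfa was lower (log2 -1.96), and Ccbe1, which helps to activate Vegfc, had no UMI in any member and was at least 8.48-fold lower than its blood vessel level, set against 3 UMIs over all members. Ccbe1 stood at 824 and 923 CPM in fibroblast barcodes, and its call was lost without barcodes holding non-endothelial markers (adjusted p = 0.758, edgeR's quasi-likelihood test). Flt1 (VEGFR1) stood at 37.7 and 129 CPM against 113 and 130 CPM, and Vegfc at 67.8 and 45.0 CPM against 107 and 88.9 CPM, and neither passed.

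Of 7 angiopoietin and Tie genes, 1 was higher and 1 lower (median log2 -0.60, at the bound -0.35). Angpt2, a Tek ligand, stood at 60.3 and 80.9 CPM against 14.7 and 9.47 CPM (log2 2.52, SE 0.49), while Tek itself, at 445 and 426 CPM against 651 and 537 CPM, did not pass. Svep1, a matrix protein that binds Tie1, was the lower gene (log2 -2.10), and its fold was 0.27 without barcodes holding non-endothelial markers. Among 13 genes of adrenomedullin signalling, sphingosine phosphate and flow sensing, 4 were higher and none lower in edgeR's test (median log2 0.44), with 1 lower at an unadjusted p under 0.05 and 0 by DESeq2's Wald test. Spns2, the sphingosine phosphate exporter, stood at 218 and 240 CPM against 22.3 and 22.6 CPM (log2 3.19, SE 0.32). The mechanosensitive channels Piezo1 (log2 1.30) and Piezo2 (log2 4.08) were both higher, the second in 33 members. Adm, adrenomedullin, was the fourth (log2 3.13, 19 UMIs), and its call was lost with a marker sum of at least 6 UMIs (log2 0.86). The adrenomedullin receptor genes Calcrl (934 and 542 CPM against 379 and 366 CPM) and Ramp2 (354 and 279 CPM against 438 and 489 CPM) did not pass.

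Lists of lymphatic capillary genes and of collecting vessel and valve genes were read separately. Of 8 capillary genes tested 4 were higher and none lower in edgeR's test, at an unadjusted p under 0.05 and in DESeq2's Wald test (median log2 1.94): Ccl21a, Lyve1, Pdpn and Fgl2, a fibrinogen-like prothrombinase at 384 and 300 CPM against 32.1 and 29.6 CPM. Stab1, a scavenger receptor, stood at 640 and 686 CPM against 592 and 549 CPM and did not pass. Of 14 collecting vessel and valve genes tested 3 were higher and 2 lower (median log2 -0.12). Foxp2 was the most abundant of the higher genes. Gja1 (connexin 43) stood at 67.8 and 111 CPM against 10.2 and 10.5 CPM (log2 3.0, SE 0.47), and Ephb4, a receptor for ephrin-B2, at 347 and 198 CPM against 77.0 and 86.5 CPM (log2 1.49, SE 0.28). Gja4 (connexin 37, log2 -1.33) and the ligand Bmp4 (log2 -2.32) were lower. The Gja4 call was lost with a marker sum of at least 6 UMIs (adjusted p = 0.0832) and with both Prox1 and Mmrn1 asked for (adjusted p = 0.104, edgeR's quasi-likelihood test). Cldn11, with 7 UMIs in members, was below the filter of 20 UMIs.

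Of 16 leukocyte trafficking and immune genes tested, 4 were higher and 4 lower (median log2 -0.66, at the bound -0.44). Beside Ccl21a, the higher genes were the cytokine Il7, at 203 and 120 CPM against 5.32 and 3.98 CPM (log2 4.90, SE 0.43), the RANK receptor gene Tnfrsf11a, at 339 and 213 CPM against 20.1 and 27.5 CPM (log2 3.31, SE 0.31), and the chemokine scavenger Ackr2 with 18 UMIs (log2 4.57, SE 0.98). The lower genes were the adhesion molecules Vcam1 (log2 -2.00), Selp (log2 -2.65) and Icam2 (log2 -1.33) and the ligand Cd200 (log2 -1.10). Ackr4, the scavenger of Ccl21, stood at 90.4 CPM in Female and 18.0 CPM in Male members against 21.9 and 19.8 CPM and did not pass.

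Blood vessel genes were not uniformly lower. Of 22 such genes outside the rule, 5 were higher, 6 lower and 11 did not pass (median log2 0.04). Emcn, endomucin of veins and capillaries, stood at 723 and 713 CPM against 366 and 326 CPM (log2 0.89, SE 0.27), a call lost under the same 2 member rules (adjusted p = 0.118 and 0.107, edgeR's quasi-likelihood test). Ldb2 (log2 1.42), Adgrl4 (log2 1.56), Gpihbp1 (log2 3.60, 28 UMIs) and Kdr were the other higher genes. Vwf, von Willebrand factor, stood at 143 and 276 CPM against 760 and 840 CPM (log2 -2.09, SE 0.30). The arterial genes Sox17 (log2 -2.72), Gja5 (connexin 40, log2 -3.68) and Notch4 (log2 -2.36), with Cd34 (log2 -1.05) and Nrp1, were also lower. Nos3, endothelial nitric oxide synthase, at 339 and 399 CPM against 472 and 502 CPM, did not pass. Of 14 junction genes, Cldn5 (414 and 369 CPM against 125 and 186 CPM, log2 1.17) and Magi1 (log2 1.12) were higher, Esam (log2 -1.46), Jam2 (log2 -2.44) and Cgnl1 (log2 -1.64) were lower, and Tjp1 was among those that did not pass (median log2 0.08).

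Guidance genes moved in both directions. Of 15 semaphorin, plexin and neuropilin genes, 4 were higher and 4 lower (median log2 -0.81). Sema3a, Sema3d (761 and 623 CPM against 48.6 and 54.1 CPM, log2 3.57), Sema6a (log2 1.45) and Nrp2 were higher. Nrp1 and the receptors Plxna2 (log2 -1.08) and Plxnd1 (log2 -1.44) were lower, with Sema6d (log2 -1.31). Of 14 Slit, Robo, netrin and ephrin genes, 4 were higher and 5 lower (median log2 -1.15, at the bound -0.82). The endothelial receptor Robo4 stood at 158 and 135 CPM against 6.45 and 5.60 CPM (log2 4.43, SE 0.43), while Robo1, with 5 UMIs in members, was lower (log2 -2.79). Unc5b (log2 1.55, not called with both Prox1 and Mmrn1 asked for), Ntn1 (1266 and 1157 CPM against 369 and 466 CPM, log2 1.37) and Ephb4 were higher, and Efna5, Ntn4 (log2 -1.38), Epha4 (log2 -1.01) and Slit3 (log2 -1.28) were lower. The Slit3 fold was 0.76 on the log2 scale, and not called, without barcodes holding non-endothelial markers.

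Reelin itself was a rule gene. Of 4 genes of its receptors and adaptors, only Dab2, an endocytic adaptor, passed, at 618 and 447 CPM against 113 and 102 CPM (log2 2.12, SE 0.27), while Lrp8 and Dab1 had no UMI in members. Of 24 integrin and matrix genes, 5 were higher and 3 lower (median log2 0.00). Lama4, a laminin chain of endothelial basement membrane, was in 122 members, at 1891 and 1370 CPM against 183 and 227 CPM (log2 2.81, SE 0.29). Lamb1 (log2 2.95), Nid2 (log2 1.99) and the integrins Itga6 (log2 3.49) and Itgb3 (log2 2.41) were also higher, and Itga5 (log2 -1.54), Lama5 (log2 -1.70) and Efemp1 (log2 -2.07) were lower.

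Of 19 Notch, BMP and TGF-beta genes, 1 was higher and 7 lower (median log2 -0.68). Bmp6, a BMP ligand, stood at 377 CPM in Female and 1043 CPM in Male members against 4568 and 3296 CPM (log2 -2.71, SE 0.34, edgeR quasi-likelihood adjusted p = 9.24e-14). The inhibitory Smads were lower with it: Smad6 at 7.53 and 102 CPM against 781 and 562 CPM (log2 -3.45, SE 0.34), and Smad7 at 7.53 and 51.0 CPM against 300 and 248 CPM (log2 -3.04, SE 0.37). Bmp4, Hey2 (log2 -2.62), Rbpj (log2 -1.27) and Notch4 were the other lower genes. Tgfbr2, the type II TGF-beta receptor, was higher, at 603 and 602 CPM against 195 and 196 CPM (log2 1.46, SE 0.26).

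The remaining lists had few genes that passed. Fatty acid handling genes had 1 of 14 higher (Gpihbp1) and 1 lower (Lrp1, median log2 0.14). Lrp1 was not called in 8 other settings, and its log2 fold was -0.13 without barcodes holding non-endothelial markers (adjusted p = 0.965, edgeR's quasi-likelihood test). Of 9 hyaluronan and scavenger receptor genes tested Lyve1 was higher and Cd44, with 2 UMIs, lower (median log2 0.01), a call that was lost in 5 other settings. Of 10 immediate early genes none was higher in edgeR's test, adjusted or unadjusted, and Nr4a1, with no UMI in members, was lower, at least 2.78-fold (median log2 -0.28). The Nr4a1 call was lost in 6 other settings, with an adjusted p of 0.373 in edgeR's quasi-likelihood test without barcodes holding non-endothelial markers. None of 9 mitochondrially encoded genes passed edgeR's test (median log2 -0.45), and 1 was lower at an unadjusted p under 0.05. None of 6 cell cycle genes tested passed, adjusted or unadjusted (median log2 1.73), and Mki67, a mark of dividing cells, had 2 UMIs in members. DESeq2's Wald test called 0 immediate early, mitochondrial or cell cycle genes.

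The 20 genes with the largest negative fold ranged from 0 UMIs in members to the 297 UMIs of Efna5. Ccbe1, F13a1 (factor XIII A chain) and Unc5d, a netrin receptor, had no UMI in any member. F13a1 was at least 8.58-fold and Unc5d at least 8.42-fold lower than in blood vessel barcodes. Gja5 stood at 7.53 and 18.0 CPM against 166 and 172 CPM (log2 -3.68, SE 0.46, edgeR quasi-likelihood adjusted p = 2.98e-13). Enpp6, a choline phosphodiesterase, stood at 7.53 and 21.0 CPM against 199.6 and 193 CPM (log2 -3.69, SE 0.44). Shisa9 had 2 UMIs in members, and its level in blood vessel barcodes was 28.0 times higher (95% counting interval 7.74 to 231). Shisa9, Arhgap20, C7, Mmp16, Frzb, Sort1, Ptger4, Arhgap15 and Slc7a2 had 2 or 3 UMIs each in members.

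Some of these genes were more abundant in fibroblast barcodes, or were called only with blood vessel barcodes that hold non-endothelial markers. C7, a complement component, stood at 520 CPM in Female and 1667 CPM in Male fibroblast barcodes, and Abca8a, a lipid transporter, at 2963 and 2532 CPM. Without barcodes holding 3 or more UMIs of non-endothelial markers, the fold of C7 was 0.45 on the log2 scale and that of Arhgap15 0.20. Abca8a (adjusted p = 0.817) and F13a1 (adjusted p = 0.774) were then no longer called by edgeR's quasi-likelihood test. F13a1 is itself a macrophage marker of that filter, so its loss is in part set by the choice of barcodes. The counts of genes called were 501 higher and 701 lower in that setting.

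The most abundant of the lower genes differed between the libraries. Mecom, the EVI1 zinc finger factor at chr3:29951296-30548008, stood at 52.7 CPM in Female and 734 CPM in Male members against 3890 and 3525 CPM (log2 -3.72, SE 0.36, edgeR quasi-likelihood adjusted p = 1.01e-22). Efna5, a membrane-anchored ephrin, stood at 151 and 830 CPM against 5272 and 4632 CPM (log2 -3.71, SE 0.36). Gpc6, a glypican, stood at 67.8 and 249 CPM against 2800 and 2550 CPM (log2 -4.21, SE 0.35), and Pcdh9, a protocadherin, at 15.1 and 108 CPM against 804 and 695 CPM (log2 -3.54, SE 0.34). The Male members were higher in all 4 genes, and no member sum reached a blood vessel sum.

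A few Male barcodes carried these UMIs. Mecom was at 0 in 44 of 46 Female and 73 of 96 Male members. In all, 1 Female and 17 Male members had 5 or more UMIs of Mecom and Efna5 together, a threshold chosen after their values were seen. The 17 Male barcodes held 234 of the 245 Male Mecom UMIs and 253 of the 277 Efna5 UMIs. Their median was 6886 UMIs against 2409 UMIs for the other Male members, and all 4 Male members marked as doublets were among them. Without these barcodes 557 genes were higher and 960 lower. The log2 fold changes were -5.85 for Gpc6, -3.92 for Bmp6, -6.90 for Smad6, -5.12 for Nrp1 and -3.93 for Vwf, while the folds of Ccl21a (11.67), Kdr (5.20) and Lyve1 (5.73) were close to those above. Of the genes that had not passed, Gata2 (log2 -1.22), Flt1 (-1.21), Vegfc (-1.44), Efnb2 (-0.84) and Ramp2 (-0.81) were then lower and Calcrl (0.85) higher. Whether these barcodes hold more than 1 nucleus was not tested beyond the doublet caller.

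Members differed among themselves. Ccl21a was found in 51 of 142 members (35.9%, exact Clopper-Pearson 95% interval 28.0 to 44.4%), 16 Female and 35 Male, and the 10 barcodes with most held 61.7% of its 522 UMIs. Blood vessel barcodes had a Ccl21a UMI in 0.0570% and 0.144% of cases. They were chosen with Prox1 and Mmrn1 at 0, which leaves out some barcodes with lymphatic transcripts, and free RNA was not tested. Lyve1 was found in 60 members (42.3%, 34.0 to 50.8%), Pdpn in 36 and Foxp2 in 109 (76.8%, 68.9 to 83.4%). Tll1, a tolloid-like metalloprotease, was found in 66 members and Ncam2, a neural cell adhesion molecule, in 15, and these 2 genes were chosen after their values were seen. The valve genes Foxc2 and Cldn11 were found in 8 and 7 members.

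Of the capillary genes, Lyve1 and Pdpn were found more often with Ccl21a than without it, and Stab1 was not. All 51 members with a Ccl21a UMI also had Reln and Mmrn1 UMIs, while of the 91 without it 37 had Reln and 75 had Mmrn1. Lyve1 was found in 39 of 51 members with Ccl21a and 21 of 91 without, at 923 and 98.5 CPM. The same order was seen within each library, at 13 of 16 against 10 of 30 in Female and 26 of 35 against 11 of 61 in Male. Pdpn was found in 20 of 51 against 16 of 91, and Nrp2 in 37 of 51 against 44 of 91. Stab1 was in 34 of 51 against 67 of 91. Reln and Mmrn1 were rule genes, so their overlap with Ccl21a is in part set by the choice of members.

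Foxp2, Tll1 and Ncam2 had the opposite pattern. Foxp2 was found in 31 of 51 members with Ccl21a and 78 of 91 without, at 435 and 1474 CPM. Tll1 was found in 16 of 51 against 50 of 91, at 277 and 804 CPM. A Ncam2 UMI was found in none of 51 members with Ccl21a, where 3 counts of 51 would be a share of 5.88% with a UMI at this depth, and in 15 of 91 without, 5 Female and 10 Male. Median UMIs per barcode were 2544 with and 2735 without Ccl21a. After each of the 133 members with 1000 or more UMIs was thinned to that number, 40 still had a Ccl21a UMI, and Lyve1 was in 25 of 40 with Ccl21a and 12 of 93 without, Foxp2 in 15 of 40 and 59 of 93, and Ncam2 in 0 of 40 and 9 of 93. These are descriptions of barcodes within 2 libraries, with no test.

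**Figure D3:**
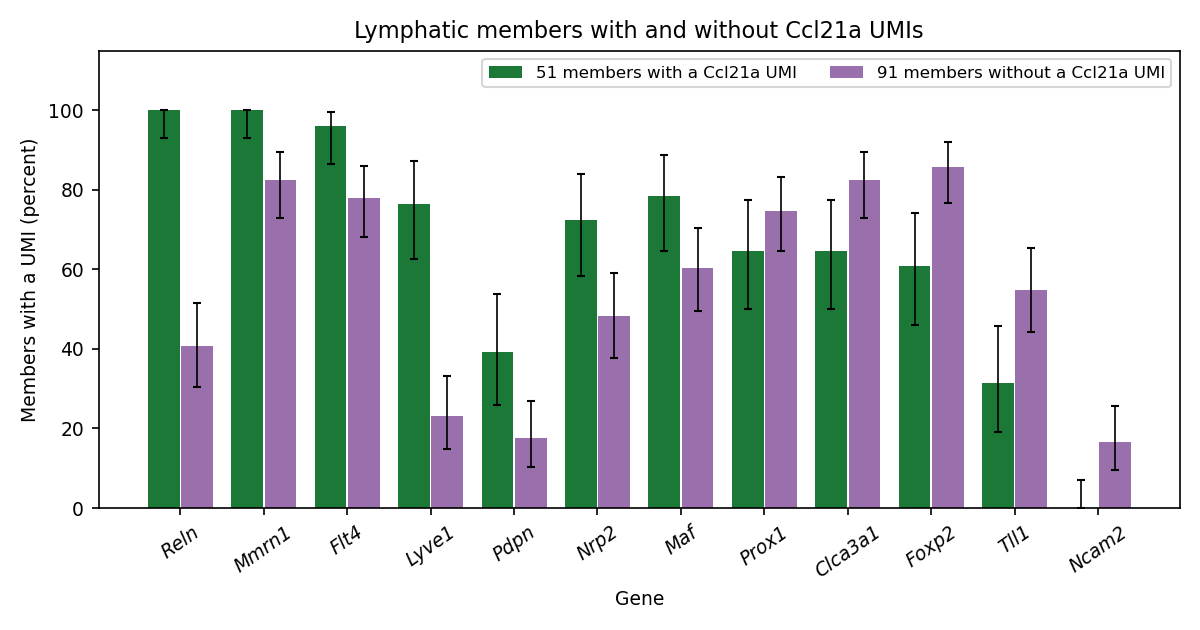
Percent of members with at least 1 UMI of each gene on the x axis, for the 51 members with (green) and the 91 without (purple) a Ccl21a UMI, with exact Clopper-Pearson 95% intervals that cover counting error only. The Lyve1 bar is taller with Ccl21a (39 of 51 against 21 of 91), Reln, Mmrn1, Flt4 and Prox1 are rule genes shown as description, and Foxp2, Tll1 and Ncam2 bars are taller without it.

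The share of members in each library was compared next, with no test since there was 1 library per sex. Members were 0.244% of Female barcodes (exact Clopper-Pearson 95% interval 0.179 to 0.325%) and 0.465% of Male barcodes (0.377 to 0.567%), a Male to Female ratio of 1.91 (95% counting interval 1.33 to 2.77). Of endothelial barcodes they were 0.867% (0.635 to 1.154%) and 1.36% (1.106 to 1.662%), and these intervals overlapped. The ratio of shares of barcodes of all classes lay between 1.86 and 2.47 over 6 other settings. Among them were a rule that asked for both Prox1 and Mmrn1 (1.86, 1.16 to 3.04) and thinning to 1000 UMIs (2.47, 1.43 to 4.44). Of endothelial barcodes, the shares with both Prox1 and Mmrn1 asked for were 0.529% in Female and 0.814% in Male. Without barcodes holding non-endothelial markers they were 1.009% and 1.626%, and no ratio of these shares was made. Reln, which counts in the rule, was at 1699 CPM in Male and 1123 CPM in Female members. Dissection and the amount of outer wall and fat in each pool cannot be told apart from sex.

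Reporter transcripts were read because, in this model, Wnt1-Cre switches the reporter from tdTomato to GFP in neural crest cells and their descendants. GFP UMIs were in 6 of 46 Female members (13%, exact Clopper-Pearson interval 4.94 to 26.3%) and 13 of 96 Male members (13.5%, 7.41 to 22.0%). In blood vessel barcodes the shares were 16.4% and 16.9%, in smooth muscle barcodes 36.3% and 36.0%, and in fibroblast barcodes 22.9% and 21.9%. As levels, GFP stood at 52.7 and 51.0 CPM in members (95% counting intervals 21.2 to 109 and 29.7 to 81.6 CPM), against 59.4 and 62.3 CPM in blood vessel and 142 and 170 CPM in smooth muscle barcodes. The counting intervals of both member levels included the blood vessel level and ended below the smooth muscle level. The fibroblast levels of 87.0 and 83.8 CPM lay inside the Female interval and just above the Male one. Aortic endothelium is not a known neural crest derivative, so its share, at medians of 3217 and 3168 UMIs per barcode against 2806.5 and 2662 in members, gives the share to set beside that of members. Member shares were below it, and no origin of these nuclei is read from them. Without barcodes holding non-endothelial markers, GFP was in 8.11% of Female members (38.6 CPM) and 14.0% of Female blood vessel barcodes (57.2 CPM), while in Male the order turned, at 13.9% (62.9 CPM) against 13.4% (55.1 CPM).

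tdTomato UMIs were in 16 Female members (34.8%, 21.4 to 50.3%) and 45 Male members (46.9%, 36.6 to 57.3%), against 52.9% and 50.9% of blood vessel barcodes. Its level was 203 and 264 CPM in members against 274 and 272 CPM in blood vessel, 118 and 148 CPM in smooth muscle and 56.9 and 60.7 CPM in fibroblast barcodes. Both transcripts were found in 5 Female and 7 Male members, GFP alone in 1 and 6, and neither in 29 and 45. At 1000 UMIs per barcode, GFP was in 4.44% and 4.55% of members and in 5.72% and 5.95% of blood vessel barcodes, and tdTomato in 15.6% and 25% of members and in 23.4% and 23.6% of blood vessel barcodes.

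**Figure D4:**
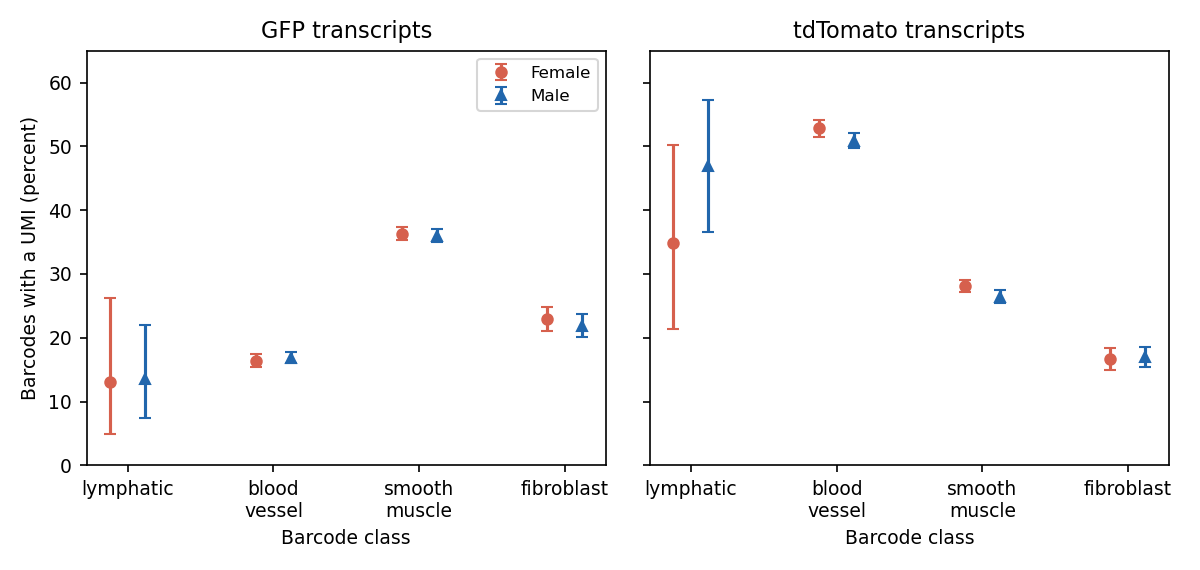
Percent of barcodes with a GFP (left) or tdTomato (right) UMI in 4 barcode classes of the Female (circles) and Male (triangles) library, with exact Clopper-Pearson 95% intervals for counting error only. Members overlap blood vessel barcodes for GFP, at 13% and 13.5% against 16.4% and 16.9%, and lie below smooth muscle at 36.3% and 36.0%.

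Female and Male members were compared gene by gene, by size alone. Of 4676 genes with at least 20 UMIs and 50 CPM in either library, 31 (0.663%) were at least 2-fold Female higher and 132 (2.82%) at least 2-fold Male higher after adding 50 CPM to each level. In blood vessel barcodes, summed over many more nuclei, the same rule gave 1 of 4206 genes (0.0238%) Female higher and 8 (0.19%) Male higher. The counting error of the smaller sums differs, so these counts do not show that members differ more between the sexes. The sex-linked genes followed the labels: Xist had 107 UMIs in Female and 0 in Male members, and Uty, Ddx3y, Eif2s3y and Kdm5d had 0 in Female and 57, 28, 22 and 11 in Male.

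Of the 10 genes with the largest Female excess outside a list of 12 known sex-dosage genes on X and Y, Mdfic, a Myod family inhibitor that regulates Piezo channels, had the most UMIs, at 806 CPM in Female and 327 CPM in Male members (ratio 2.47, 95% counting interval 1.87 to 3.25), in 33 and 53 barcodes. Pir, an X-linked gene for an iron-binding nuclear protein, stood at 384 and 144 CPM (ratio 2.67, 1.77 to 4.05) in 15 and 31 barcodes. Btnl9, a butyrophilin-like protein that was among the 20 genes highest in members, stood at 203 and 62.9 CPM (ratio 3.23, 1.76 to 6.01). Tmeff2 had the largest log2 ratio (1.80), and 35 of its 44 Female UMIs came from 1 barcode. Stmn2, Ehd1, Igfbp3, Apobec1, Psma6 and Shtn1 had 14 to 31 Female UMIs each. In blood vessel barcodes none of the 10 had a log2 ratio beyond 0.37 in either direction.

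The 10 genes with the largest Male excess were Mecom (log2 ratio -2.93), Rbfox1, Meg3, Efna5 (-2.13), Fam13a, Kirrel3, Pparg, Bicc1, Ptprj and Magi2 (-1.95). Single barcodes weighed heavily on them: 77 of 85 Male Fam13a UMIs, 81 of 119 Pparg UMIs and 46 of 74 Rbfox1 UMIs came from 1 barcode each. Of the 132 Male-higher genes, 30 had at least 50% of their Male UMIs in 1 barcode. Without the 18 barcodes rich in Mecom and Efna5, 50 genes were Male higher and 34 Female higher, and 29 of the original 132 were among the 50. Efna5, which with Mecom chose the barcodes left out, then had a log2 ratio of -0.24. Ptprj had one of 0.61, while Mdfic (0.96) and Btnl9 (0.91) came just under 2-fold. The part of these barcodes in the other genes was not tested.

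A further 4 genes known to respond to glucocorticoids were looked at after values had been seen, with no list behind them. Fkbp5, a glucocorticoid-induced co-chaperone, had 7 UMIs in 6 Female members and 98 UMIs in 41 Male members, at 52.7 and 294 CPM (log2 ratio -1.74). Zbtb16, a zinc finger repressor, stood at 286 and 800 CPM, in 21 of 46 and 72 of 96 members (log2 ratio -1.34). Tsc22d3, at 60.3 and 65.9 CPM, did not differ beyond counting error (log2 ratio -0.07), and neither did Per1, at 15.1 and 56.9 CPM (ratio 0.265, 0.0299 to 1.10). For Fkbp5 and Zbtb16 the log2 ratios in blood vessel barcodes were -1.34 and -1.27, and without the Mecom and Efna5 barcodes the member ratios were -1.81 and -1.35. Both were lower in the Female library in both classes.

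Lymphatic genes were compared in the same way. Foxp2 was 1.90 times higher in Female members (95% counting interval 1.59 to 2.26) and Ccl21a 1.48 times (1.23 to 1.77), while Reln was 0.661 of its Male level (0.548 to 0.793). Maf, Nrp2, Nr2f2, Lyve1 and Kdr had intervals that included 1. Of the other rule genes, Prox1 had a ratio of 1.42 (1.11 to 1.81), and the intervals of Mmrn1 and Flt4 included 1. Counting intervals cover UMI sampling only, and the single barcode with most Ccl21a held 24.9% of its Female UMIs, so the spread between animals is not in them.

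**Figure D5:**
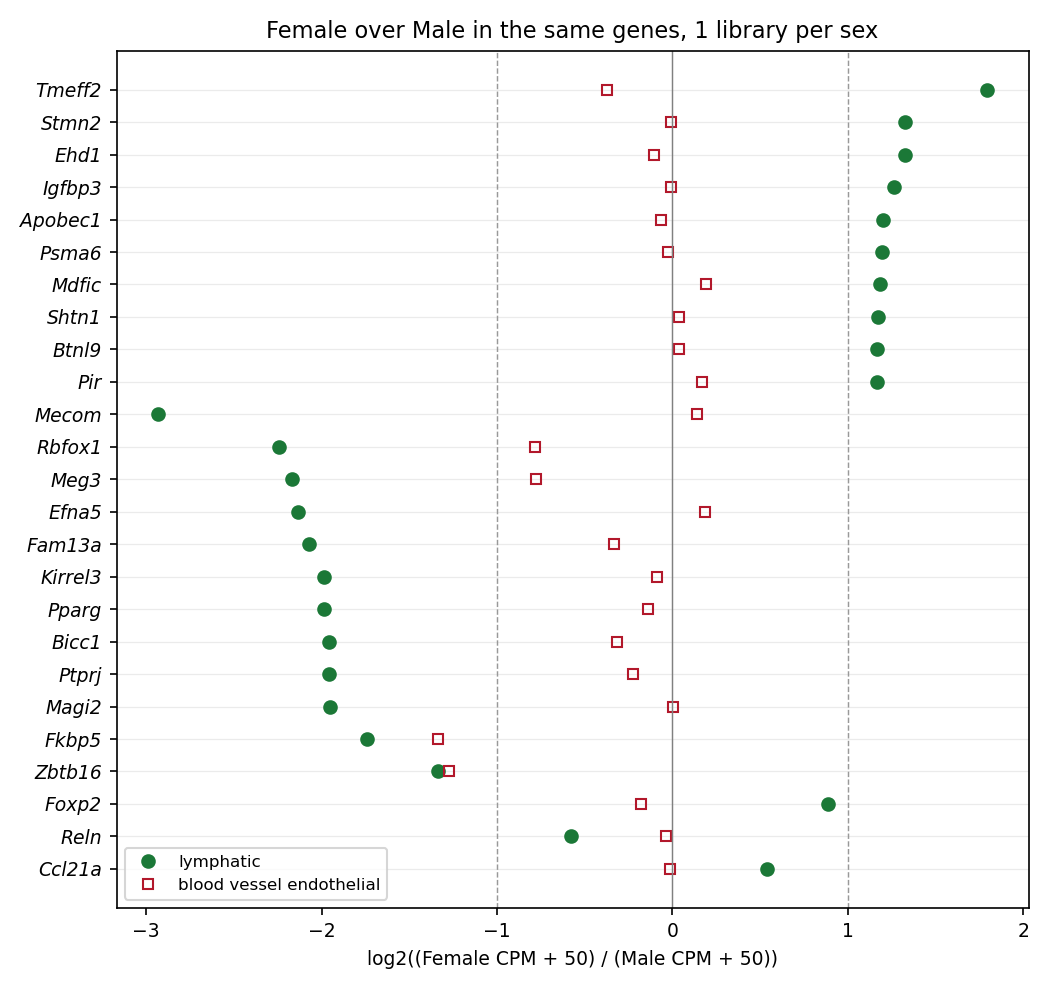
Log2 ratio of Female over Male CPM after adding 50 CPM, in members (green circles) and in blood vessel barcodes (red squares), for the 10 genes with the largest excess each way and 5 further genes; dashed lines mark 2-fold. Blood vessel ratios lie near 0 for most of these genes, while Fkbp5 and Zbtb16 are lower in Female in both classes.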

How the data were processed

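Single nuclei from 1 pooled library per sex were captured on a BMKMANU DG1000 droplet platform, per the labels' protocols. The authors deposited filtered matrices of UMI counts per gene and barcode, written by Cell Ranger 7.0.0 per the file headers. GRCm38, STAR and Seurat 4.4.0 are listed in the submitters' processing notes, and how strand and introns were treated, with which annotation, is not given in the sources used here. Of the 40 named genes, 27 overlap another annotated gene (5 a coding one), so reads of overlapping genes may be mixed.

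Members and gene lists were chosen with earlier results of these data known. Counts were summed by class and library (79294181 Female and 77989549 Male UMIs in all), and genes with at least 20 UMIs over the 4 sums, without the 13 rule genes, were tested with edgeR 4.0.16 in R 4.3.3 (TMM scaling, quasi-likelihood test, library as a block, Benjamini-Hochberg). The same-library block pairs sums from the same pool of animals. Named genes were the 20 with the largest fold each way among those called, with 1 direction in both libraries and a mean of at least 50 CPM in the higher class, plus members of the 20 gene lists. Clone-type gene names were left out. The sexes were compared by size alone, with ratio and Clopper-Pearson intervals that cover counting error only, since UMIs of 1 barcode are not independent. Female and Male each had 1 library, so nothing separates animals. Doublets were marked by Scrublet (scanpy 1.11.5, expected rate 0.08), and kept in the values reported. edgeR's test was checked on counts simulated with the same dispersion for all genes, with folds put only in well-covered genes. That check does not cover genes with few UMIs in members or with UMIs gathered in single barcodes. Alternatives were DESeq2 1.42.0 (size factors and Wald test), other UMI minimums, pseudocounts, member rules, doublets left out, depth limits, no block, and each library on its own. A few genes that fall under these rules are not reported here.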

Additional observations from a re-analysis of the deposited data

Results flagged for a closer look

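Among the genes compared between lymphatic and blood vessel endothelial barcodes, 2 were flagged for ratios of opposite sign in the libraries. They are not the only ones, since 1200 of the 1206 genes called had the same direction in both. Stab1, a scavenger receptor, had a log2 ratio of -0.13 in Female and 0.22 in Male barcodes. Ackr4, the scavenger receptor for Ccl21, had a log2 ratio of 1.61 in Female and -0.19 in Male barcodes, from 12 and 6 UMIs in members. The difference between the libraries was not tested for either gene, since each sex had 1 library.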

How the results depend on the processing

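Over 12 other settings of the comparison with blood vessel barcodes, 391 to 643 genes were higher and 260 to 960 lower. DESeq2's Wald test gave the lowest count of lower genes (260). Leaving out members rich in Mecom and Efna5, a setting chosen after seeing the data and applied to members alone, gave the highest. Without the library block, which pairs the sums of 1 pool, 643 genes were higher and 803 lower. Each library on its own gives ratios and no test. Without barcodes holding non-endothelial markers, the log2 folds of C7 (0.45), Arhgap15 (0.20), Svep1 (0.27) and Slit3 (0.76) turned positive and none was called.

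Counts of genes at least 2-fold apart between the sexes moved with the pseudocount, to 155 Female higher and 390 Male higher at 10 CPM and to 5 and 46 at 100 CPM. With at least 40 UMIs they were 18 and 77. The Male-higher count was 87 without barcodes holding non-endothelial markers, 71 with members of 2000 to 8000 UMIs, and 50 without those rich in Mecom and Efna5, where Ptprj turned to 0.61. The share of members fell to 0.148% in Female and 0.276% in Male when both Prox1 and Mmrn1 were asked for, to 0.106% and 0.262% after thinning to 1000 UMIs, and in Male to 0.373% with a marker sum of at least 6. Thinning also lowered shares of members with a UMI, to 27.8% for Lyve1, 49.6% for Reln and 55.6% for Foxp2, and to 4.44% and 4.55% for GFP and 15.6% and 25% for tdTomato in Female and Male. The cause of these moves was not tested, other than that thinning leaves fewer UMIs. With 46 and 96 members, genes of under 20 UMIs were not tested.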
